A study of Mus musculus with 6 samples.

Results

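All monocyte libraries of the study shared broad stretches of open chromatin. Of these, 442 held a larger part of all bases under peaks in every DTR library than in any WT library. The study mapped open chromatin by ATAC-seq, which tags accessible DNA with sequencing adapters through the Tn5 transposase, and the authors called broad peaks on each library alone. The peaks of the 6 libraries were merged where they overlapped or touched, which gave 90477 regions on chromosomes 1 to 19. Of these, 67099 held a peak of every library and 16242 were also at least 1000 bp wide. In each of the 16242 the bases under peaks were summed per library and divided by all bases under peaks in that library, and the result is called the share of the region (bp per Mb of peaks). A region was a member when the lowest DTR share exceeded the highest WT share. The rule asked for the 500 such regions with the largest ratio of the DTR mean to the WT mean, and 442 qualified, so every qualifying region is a member. The members were thus chosen by the shares, so shares, covered bases and ratios are given below as a description with no test.

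The DTR group comprised 3 libraries of blood monocytes from PF4cre-iDTR mice given diphtheria toxin, and the WT group 3 libraries of blood monocytes from wild-type mice given the same toxin. In PF4cre-iDTR mice the Pf4 promoter, active in megakaryocytes, drives Cre, which switches on a toxin receptor, and the labels describe these mice as thrombocytopenic and the WT mice as controls. Pf4-driven Cre has also been reported to act in some other blood cells, and whether monocytes here carried the receptor is not given in the labels. The labels give neither age, sex, dose nor time after the toxin, nor whether each library came from its own animal or from a pool. A p-value over libraries therefore measures no more than the spread between these 6.

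Monocytes are myeloid cells of the blood that respond to infection and injury and give rise to macrophages. In their chromatin, accessible DNA marks promoters and enhancers, and a broad peak joins neighbouring stretches of enriched signal into 1 interval. The width of such a peak therefore describes how far the called interval reached and not how strongly the site was opened.

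Promoters show what wider coverage means at the level of bases. Of the windows from 250 bases before to 50 bases after an annotated start, 134 windows of 108 genes lay wholly inside members. In 102 of the 134, peaks of all 6 libraries covered the whole window, so the added bases lay outside these windows. Several starts of a gene count apart here, with 13 windows for the noncoding gene 5430401H09Rik. Windows in other regions were not counted in this way, so the numbers do not set members apart. Only 11 windows held any base that was covered in all 3 DTR libraries and in no WT library, called a DTR-only base here. In 4 windows there were at least 150 such bases. The 4 protein-coding genes with the most are shown because their windows reach beyond the WT peaks, and they were chosen after their values were seen. Sequences are from RefSeq (GRCm38.p6), 5′ to 3′ on the strand of the gene, with DTR-only bases in capitals: Astl (chr2:127338389-127338688, plus strand), Ttc33 (chr15:5185240-5185539, plus strand), Wsb2 (chr5:117357055-117357354, plus strand) and Ifi213 (chr1:173599223-173599522, minus strand).
Astl: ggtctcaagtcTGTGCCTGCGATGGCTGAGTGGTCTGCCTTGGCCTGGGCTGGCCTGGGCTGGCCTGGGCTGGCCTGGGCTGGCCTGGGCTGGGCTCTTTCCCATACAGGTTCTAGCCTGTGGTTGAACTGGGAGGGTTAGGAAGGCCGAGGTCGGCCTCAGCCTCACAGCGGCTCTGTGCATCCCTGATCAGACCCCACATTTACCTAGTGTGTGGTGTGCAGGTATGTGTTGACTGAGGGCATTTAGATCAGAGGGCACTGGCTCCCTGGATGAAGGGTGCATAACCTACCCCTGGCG
Ttc33: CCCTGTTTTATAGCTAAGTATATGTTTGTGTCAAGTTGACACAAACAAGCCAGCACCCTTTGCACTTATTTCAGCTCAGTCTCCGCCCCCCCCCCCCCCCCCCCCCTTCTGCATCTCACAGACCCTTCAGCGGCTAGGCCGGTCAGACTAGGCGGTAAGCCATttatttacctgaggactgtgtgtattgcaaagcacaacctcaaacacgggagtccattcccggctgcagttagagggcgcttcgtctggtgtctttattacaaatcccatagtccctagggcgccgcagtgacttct
Wsb2: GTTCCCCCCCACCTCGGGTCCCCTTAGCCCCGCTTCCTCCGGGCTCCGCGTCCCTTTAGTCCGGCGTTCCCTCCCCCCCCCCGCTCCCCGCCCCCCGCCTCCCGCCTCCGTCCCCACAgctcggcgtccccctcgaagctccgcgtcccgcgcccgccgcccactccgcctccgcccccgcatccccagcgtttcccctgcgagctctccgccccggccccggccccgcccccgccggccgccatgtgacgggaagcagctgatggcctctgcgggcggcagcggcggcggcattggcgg
Ifi213: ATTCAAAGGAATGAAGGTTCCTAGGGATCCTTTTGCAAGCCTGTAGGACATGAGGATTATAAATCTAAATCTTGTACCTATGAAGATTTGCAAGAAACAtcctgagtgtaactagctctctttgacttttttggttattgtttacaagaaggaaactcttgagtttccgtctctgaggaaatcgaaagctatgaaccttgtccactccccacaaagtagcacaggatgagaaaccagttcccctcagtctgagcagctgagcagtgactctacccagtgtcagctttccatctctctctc

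Astl encodes ovastacin, a protease of the egg. Its window was covered over 300, 300 and 300 bp in the DTR libraries 1 to 3 and over 11, 0 and 0 bp in the WT libraries 1 to 3, so 289 of 300 bases are capitals. At Ttc33, which encodes a protein with tetratricopeptide repeats, the DTR peaks covered all 300 bp in each library and the WT peaks 130, 137 and 130 bp. The window of Wsb2, a SOCS-box protein of ubiquitin ligases, was covered over 300 bp in each DTR library and over 172, 182 and 172 bp in WT libraries, and 118 bases were DTR-only. Ifi213 belongs to the interferon-inducible Ifi200 family, whose proteins include sensors of DNA. Its window was covered over 300 bp in each DTR library and over 201, 196 and 201 bp in WT libraries, with 99 DTR-only bases. In Ttc33, Wsb2 and Ifi213 the capitals are the bases farthest upstream, so the start itself was covered in both groups.

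The promoters within members were GC-rich, like those of other wide regions. The noncoding gene 5430401H09Rik has 13 of the 134 windows, so each gene was counted by its first window in position. Over the 108 genes the median number of CpG was 23.5 and the median GC content 64.3%, against 24 and 64.0% for 6165 genes with a window in other tested regions, and 7 and 52.7% for all 25748 genes of the table on these chromosomes. Of 13 motifs searched on both strands, the 7 with at most 7 letters are given. The GC box (GGGCGG), bound by SP and KLF factors, occurred at 67.6% of member genes, against 71.1% and 36.0% of the genes in those comparisons. The ETS core (GGAA), part of the site of PU.1, occurred at 88.9%, against 94.8% and 95.9%. The CCAAT box (CCAAT) occurred at 36.1%, against 36.4% and 37.7%, and the TATA box (TATAAA) at 6.48%, against 5.81% and 14.2%. Values were 3.70% against 4.31% and 7.97% for AP-1 (TGANTCA), 7.41% against 10.9% and 16.9% for RUNX (TGTGGT), and 8.33% against 11.3% and 7.11% for the E-box (CACGTG). Member promoters lay nearer to those of other wide regions than to all promoters in the GC box, RUNX, AP-1 and TATA letters. In the E-box they lay nearer to all promoters, and in the ETS core they lay below both comparisons. The longer motifs are not part of this comparison. A match of such short letters is a description of the window and not a binding site.

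Members were a small part of the regions tested. They made up 2.72% of the 16242, whereas 4955 regions (30.5%) lay the other way, with the lowest WT share above the highest DTR share. The median ratio of the DTR mean to the WT mean was 1.47 in members (middle 50% 1.22 to 1.83, range 1.02 to 5.43), 0.949 in the 15800 other regions and 0.950 in all tested regions. The balance of both directions depended on the scaling, and DTR libraries had more bases under peaks in all. Peaks covered 50.1, 48.1 and 50.1 Mb in DTR libraries, against 47.7, 43.8 and 46.4 Mb in WT libraries, a difference of 3.46 Mb (7.53% of the WT mean; exact two-sided permutation p = 0.1, the smallest that 3 against 3 libraries allow). Without scaling, 2403 regions (14.8%) were covered more and 245 (1.51%) less in DTR, and the median ratio of all tested regions was 1.02. Divided by the bases under peaks within tested regions, the numbers were 577 more and 2431 less. Every DTR total exceeded every WT total, so a member covered more by share was also covered more without scaling, by construction.

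Markers of monocytes had open gene ends in all libraries. All 12 classical monocyte markers and 11 of 12 non-classical markers had a peak within 1 kb of a gene end in every library. The same held for 10 of 10 dendritic cell markers and 10 of 11 markers of stem and progenitor cells. A peak at a gene end therefore does not set monocyte markers apart. Peaks at the ends of the classical markers covered 271 to 294 bp per Mb of peaks in DTR libraries and 277 to 287 in WT libraries. Of the 14 markers of megakaryocytes and platelets, 8, 7 and 7 had a peak at an end in DTR libraries and 6, 7 and 6 in WT libraries, with 78.9 to 84.1 bp per Mb in DTR and 71.9 to 89.7 in WT. Pf4, Gp9, Gp5, Selp, Vwf and Clec1b had one in all 6 libraries, while Gp1bb, Treml1, Tubb1, Ppbp and Gp6 were among those with none in any. The count of DTR1 includes Gp1ba, with 7 bp there and no peak at an end in any other library. Of the 11 neutrophil markers, 8, 9 and 9 had a peak in DTR libraries and 7, 7 and 7 in WT libraries. The counts of DTR2 and DTR3 include Mpo, with 9 bp in each. Neutrophil ends had 62.8 to 69.1 bp per Mb in DTR and 55.3 to 59.4 in WT, without overlap. Macrophage ends did not overlap either, in the other direction, with 142 to 150 bp per Mb in DTR and 154 to 155 in WT. In the other lists of cell types the groups overlapped. The neutrophil genes Elane and Retnlg had a peak in no library, and the part of other cell types in the widths below was not tested. The peak lists used here carry no read counts, so depth was unknown.

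At the median, DTR peaks filled nearly the whole member and WT peaks a little over 50% of it, as the choice of members favours. The median member had 1193, 1185 and 1198.5 bp under peaks in DTR libraries and 814, 727 and 794.5 bp in WT libraries, in a median region of 1322 bp. The peaks covered a median of 96.2%, 93.4% and 96.1% of a member in DTR libraries and 59.3%, 51.5% and 58.0% in WT. In other tested regions the medians were 96.5%, 95.2% and 97.4% in DTR and 96.0%, 91.1% and 92.8% in WT. Merged widths come from the same peaks, so these percentages are bound to the choice of members. Summed over members, the peaks of DTR libraries covered 574, 558 and 574 kb, and those of WT libraries 377, 334 and 366 kb. Peaks reached the full merged width in 36, 29 and 39 members in DTR and in 0, 0 and 0 in WT, and covered under 300 bp in 1, 2 and 1 members in DTR and 27, 41 and 24 in WT.

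**Figure D1:**
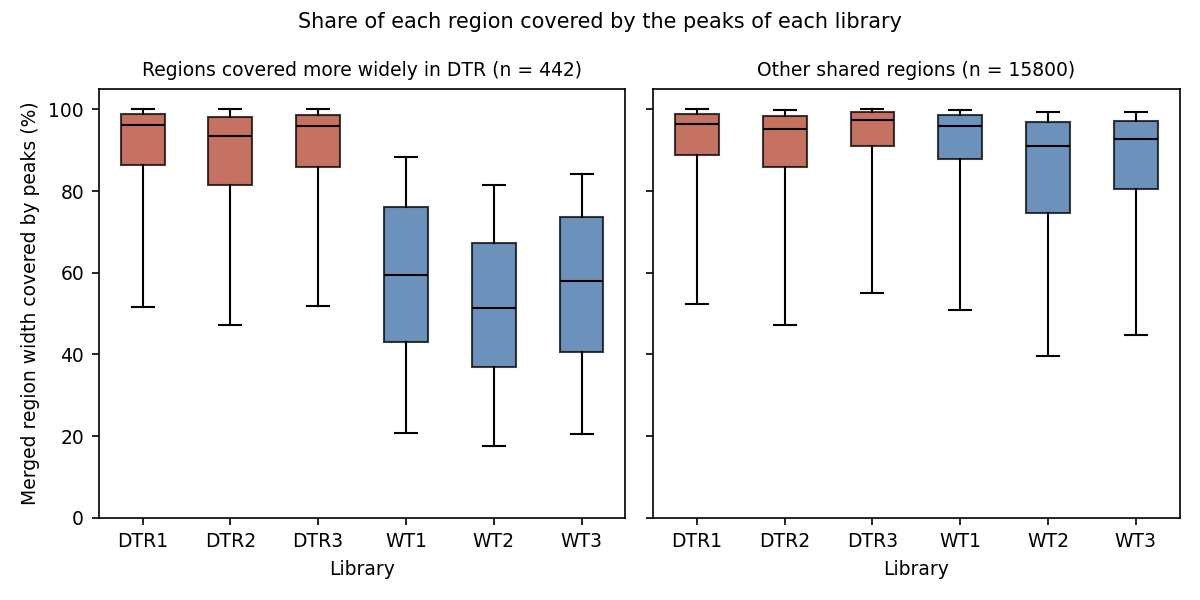
Percent of the region covered by peaks (vertical axis) in each library (horizontal axis, DTR libraries left, WT libraries right), for members and for other tested regions, with boxes from the lower to the upper quartile around the median and whiskers at the 5th and 95th percentiles. The median member is covered to 93.4% to 96.2% in DTR libraries and to 51.5% to 59.3% in WT libraries, while the medians of other regions lie between 91.1% and 97.4% in all 6.

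**Figure D2:**
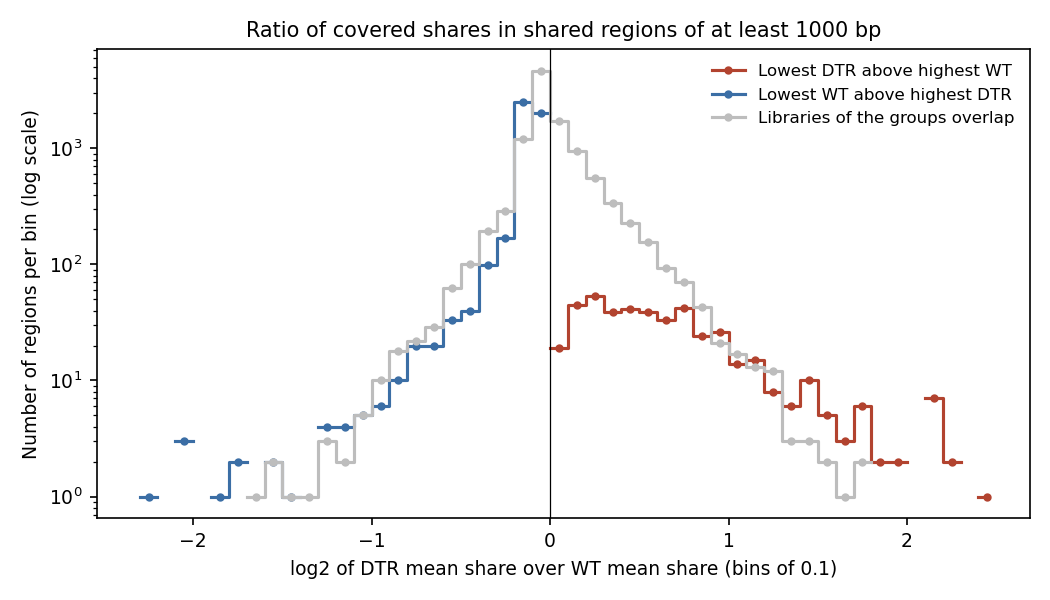
Number of tested regions (vertical axis, log scale) by the log2 of the DTR mean share over the WT mean share (horizontal axis), for members, for regions with the lowest WT share above the highest DTR share, and for regions where the libraries of the groups overlap. The 4955 regions of the opposite kind gather just below a ratio of 1, and the 442 members spread with no sharp peak to a ratio of 5.43.

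The distance between the groups was small in many members and large in few. The ratio was under 1.2 in 100 members, 1.2 to 1.5 in 132, 1.5 to 2 in 129, 2 to 3 in 56 and at least 3 in 25. The lowest DTR share exceeded the highest WT share by a median factor of 1.11. In 137 members (31.0%) the gap between the groups was wider than the spread within either group. The coefficient of variation between libraries had a median of 5.62% in DTR and 8.41% in WT, against 3.58% and 5.10% in other regions, and 15.9% and 22.3% in the 81 members with a ratio of at least 2. Libraries of the same group thus differed more, at the median, in the members with large ratios. The lowest DTR library was DTR1 in 171 members, DTR2 in 106 and DTR3 in 165, and the highest WT library was WT1 in 146, WT2 in 175 and WT3 in 121, so each library was at the limit of its group in many members.

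The added bases lay at the edges of WT peaks more often than in gaps between them. Most members held a single peak in WT libraries (83.7%, 80.5% and 81.0%), which leaves few gaps. The order therefore does not show a preference for edges. The bases covered in all 6 libraries had a median of 650.5 bp per member, against 1038 bp in other regions. DTR-only bases occurred in 402 members (91.0%), against 18.4% of other regions, and at least 200 of them in 179 members (40.5%), against 12 other regions (0.0759%). They summed to 102265 bp over members, whereas bases covered in all 3 WT and no DTR library summed to 55 bp. In 278 members (62.9%) the DTR-only bases lay on 1 side of the WT peaks, on the side of lower coordinates in 135 and of higher coordinates in 143. They lay on both sides in 47 (10.6%), between WT peaks in 58 (13.1%) and in both kinds of place in 19 (4.30%). The other 40 members had none. Among 29 members with a gene start and at least 200 DTR-only bases, more of these lay downstream of the start in 12 and upstream in 17. These counts follow from the choice of members and are not evidence of a direction.

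**Figure D3:**
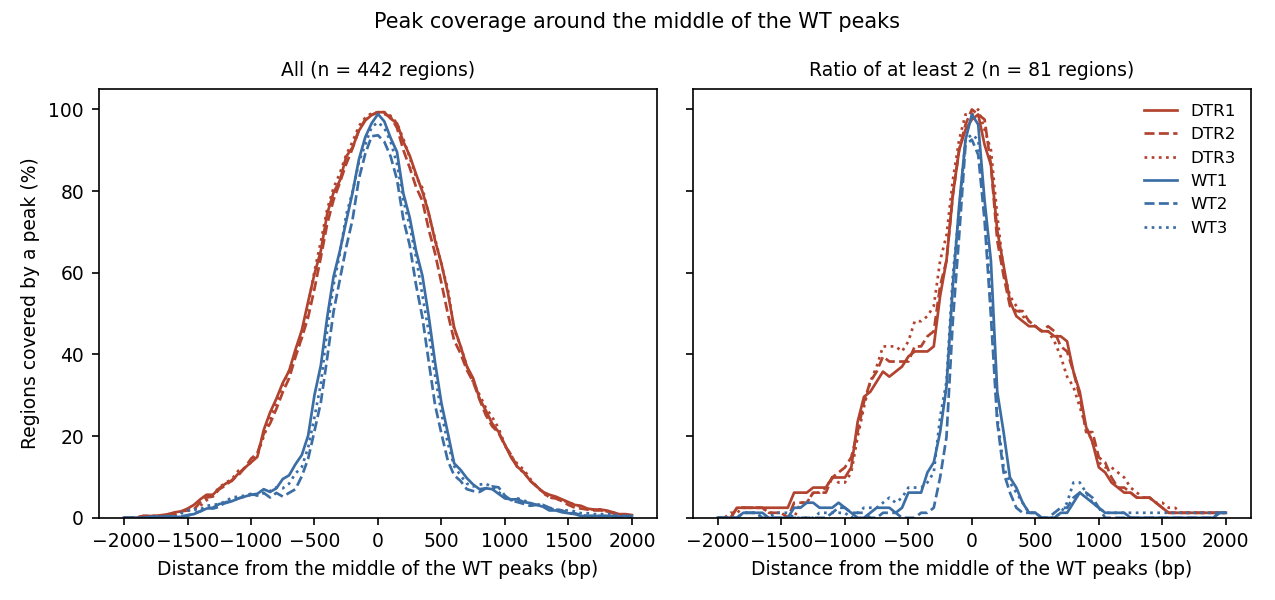
Percent of members covered by peaks (vertical axis) against the distance from the middle of the WT peaks in bp (horizontal axis), 1 line per library, for all members and for those with a ratio of at least 2. At 500 bp on either side the DTR lines of all members lie between 56.1% and 62.2% and the WT lines between 20.6% and 30.1%.

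At 500 bp below the middle of the WT peaks, 59.7%, 56.1% and 60.4% of members were covered in DTR libraries and 30.1%, 21.3% and 24.7% in WT libraries. At 500 bp above it the values were 62.2%, 57.5% and 62.0% in DTR libraries and 28.1%, 20.6% and 25.6% in WT. The profile was close to even on both sides. In the 81 members with a ratio of at least 2, 46.9% were covered at 500 bp above in each DTR library, against 1.23% in each WT library. At 500 bp below, the values in that set were 39.5%, 38.3% and 43.2% in DTR libraries and 6.17%, 0% and 7.41% in WT.

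The authors' fold enrichment over background was no higher at the median for the wider peaks of DTR than for those of WT. A fold taken over a whole broad peak can fall as the peak reaches further, so these values cannot separate strength from width. The strongest peak of a member had a median fold of 5.33, 5.37 and 5.29 in DTR libraries and 5.57, 5.74 and 5.79 in WT libraries. Its percentile within its own list had a median of 49.8 to 51.5 in DTR and 54.3 to 56.7 in WT, against 58.4 to 60.7 for other regions over all libraries. The median −log10 q of members was 28.0, 25.7 and 26.9 in DTR and 29.6, 26.0 and 25.3 in WT. Other regions had medians of 67.7, 64.5 and 68.9 in DTR and 66.1, 56.8 and 59.8 in WT, so members ranked among the weaker of the wide shared regions in both groups. A member held a single peak in 92.5%, 91.4% and 93.0% of cases in DTR libraries and in 83.7%, 80.5% and 81.0% in WT libraries, so more members were split into several WT peaks. In other regions the values were 95.2%, 94.5% and 96.9% in DTR and 96.3%, 91.7% and 93.1% in WT.

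Members lay away from gene ends more often than other wide regions. A gene end was a window of 1 kb around either end of a protein-coding gene. Of the members, 131 (29.6%) were at a gene end, 170 (38.5%) inside a gene and 141 (31.9%) between genes, against 41.3%, 32.9% and 25.7% of other regions. The larger the ratio, the smaller was the share at gene ends, with 56% in members under 1.2, 33.3% from 1.2 to 1.5, 19.4% from 1.5 to 2, 8.93% from 2 to 3 and 1 of 25 members at 3 or more. In the other direction, gene ends held 48.3% of all 4955 regions covered less in DTR, 17.4% of the 144 with a ratio of at most 0.75 and 21.7% of the 23 with a ratio of at most 0.5. The median ratio was 1.22 at gene ends, 1.59 inside genes and 1.62 between genes. The median distance to the nearest gene end was 8494.5 bp in members and 4207.5 bp in other regions. By chromosome, members made up 1.59% (chromosome 4) to 3.66% (chromosome 3) of the regions tested.

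**Figure D4:**
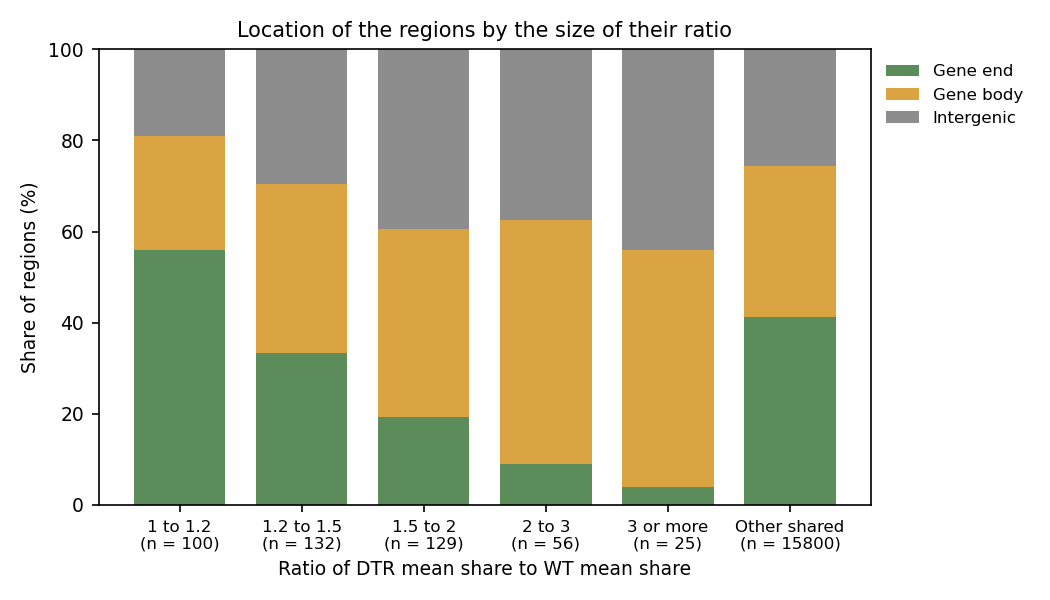
Share of regions at gene ends, inside genes and between genes (vertical axis, percent), by the size of the ratio of the DTR mean to the WT mean in members, with the 15800 other tested regions in the last bar (horizontal axis). Gene ends hold 56% of members with a ratio under 1.2 and 1 of the 25 at 3 or more.

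The largest ratios with a gene within 10 kb were at genes of varied function. Khdrbs2, which encodes an RNA-binding protein, held a region inside the gene (chr1:32249576-32250590) with 1013, 869 and 1014 bp under peaks in DTR and 145, 171 and 230 bp in WT, a ratio of 4.92. Every DTR peak there spanned most of the region and every WT peak a small piece. Without peaks under 200 bp the ratio was 11.8, because the WT1 and WT2 peaks (145 and 171 bp) fell out. At Ide, which encodes the insulin-degrading enzyme (chr19:37296983-37298631), the DTR peaks covered 1649, 1633 and 1024 bp and the WT peaks 245, 309 and 319 bp (ratio 4.58). Med13l encodes a subunit of the Mediator kinase module, and its region (chr5:118644464-118645504) had 1021, 1035 and 1011 bp in DTR and 250, 265 and 264 bp in WT (ratio 3.66). Its libraries differed little within either group. The ratio was 3.43 at Lipc, the hepatic lipase gene. It was 6.59 without peaks under 200 bp, because the WT2 and WT3 peaks (192 and 188 bp) fell out.

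Not every large ratio rested on all libraries alike. Near Kcna3, which encodes the potassium channel Kv1.3 (chr3:107044183-107045659), the DTR libraries had 982, 645 and 188 bp and the WT libraries 167, 139 and 151 bp (ratio 3.70). The DTR3 library lay close to the WT libraries there. At Sun2, a gene of the nuclear envelope (chr15:79733728-79735820), DTR had 1270, 446 and 1304 bp and WT 322, 158 and 333 bp, with DTR2 low. Near Tle3, a Groucho family corepressor gene (chr9:61368341-61369786), the DTR libraries had 519, 1438 and 1423 bp and WT 297, 289 and 139 bp, and no base was covered in all 6 libraries. With peaks of a −log10 q of at least 5 alone its ratio was 22.5, because the WT1 and WT2 peaks (3.98 and 3.18) fell out. Wwox, a tumour suppressor gene (ratio 4.50), had 1018, 999 and 1314 bp in DTR and 211, 138 and 343 bp in WT, with no overlap and a wide margin. Its ratio was 15.3 without peaks under 200 bp, because short WT peaks, such as that of WT2 (138 bp), fell out. Trpc4ap, an adaptor gene of a ubiquitin ligase (ratio 4.37), had 935, 935 and 1493 bp in DTR and 359, 176 and 186 bp in WT, and Zeb2 completed the 10.

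The region of Zeb2 held the most DTR-only bases, 974 bp. Zeb2 encodes a zinc finger repressor that takes part in the fate of myeloid cells. Its region (chr2:44995704-44997695, inside the gene, 12192 bp from the nearest end) had 1992, 1920 and 1659 bp under peaks in DTR and 430, 417 and 488 bp in WT (ratio 3.88). The peaks were weak, with a −log10 q of 3.71, 2.64 and 2.99 in DTR and 2.90, 3.20 and 3.96 in WT. Each list was also shortened to the 77867 strongest peaks, the full length of the WT2 list. No DTR peak was then left in this region and its ratio was 0. The DTR lists (84029, 81567 and 81579 peaks) were cut more than the WT lists (78162, 77867 and 80475). This 0 therefore does not show that the DTR peaks were the weaker ones.

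In Tmem181a (chr17:6270176-6272302), 926 DTR-only bases lay between WT peaks, and peaks covered 2126, 2118 and 2099 bp in DTR and 1146, 1162 and 1166 bp in WT (ratio 1.70). The region was 1 peak in DTR where WT libraries had separate peaks. Fosl2 encodes a subunit of the AP-1 transcription factor, and its region (chr5:32138524-32139957) had 1372, 1431 and 1434 bp in DTR and 575, 573 and 431 bp in WT, with 797 DTR-only bases (ratio 2.49). The 3 DTR libraries were close together and the WT libraries well below them.

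**Figure D5:**
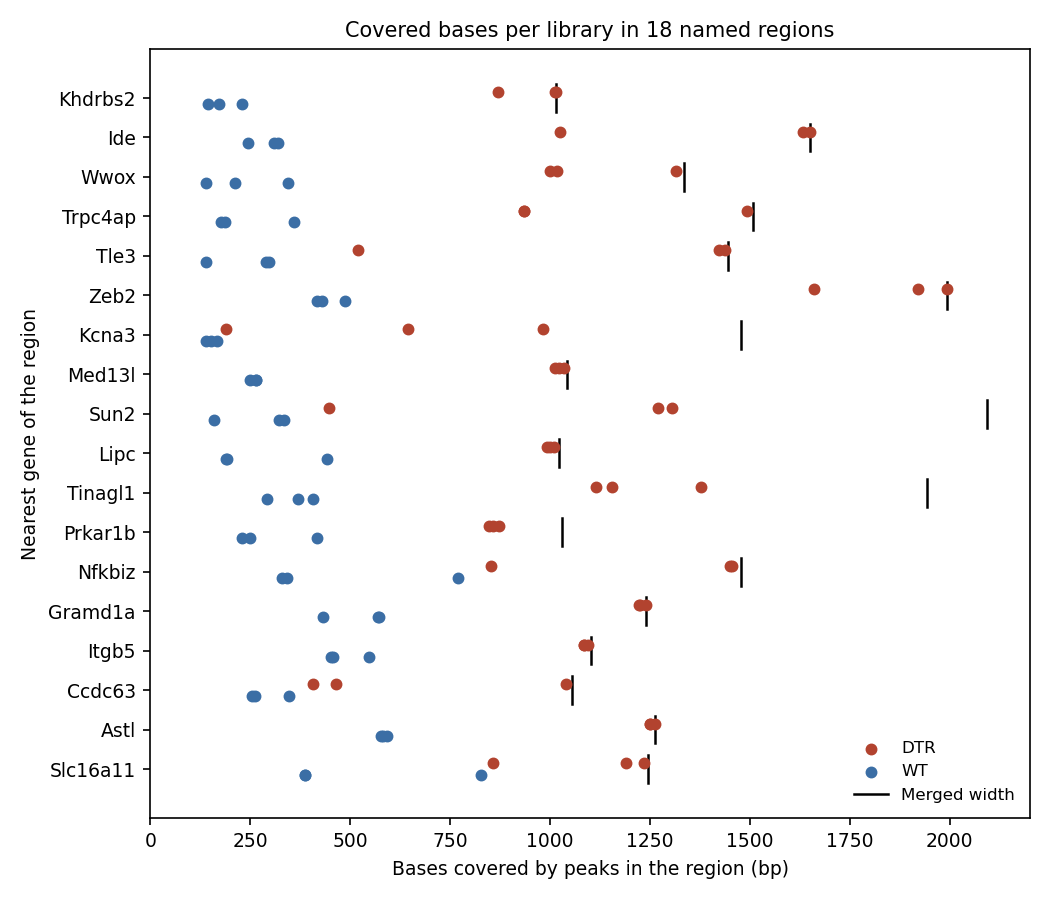
Bases under peaks (horizontal axis, bp) for the 18 regions with the largest ratios overall and at gene ends (vertical axis, nearest gene), 1 point per library with DTR above WT in each row, and a black mark at the merged width. At Khdrbs2 and Med13l the groups lie far apart, while at Kcna3 the lowest DTR library (188 bp) lies near the highest WT library (167 bp).

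At gene ends the largest ratio was 3.19, at Tinagl1, which encodes a secreted matrix protein (chr4:130174491-130176434; 1116, 1154 and 1377 bp in DTR and 406, 292 and 370 bp in WT). At Itgb5, which encodes an integrin subunit (chr16:33950273-33951375), the DTR libraries had 1085, 1085 and 1095 bp and the WT libraries 547, 451 and 456 bp (ratio 2.09). Peaks there had high −log10 q in both groups, from 154 to 171 in DTR and from 162 to 191 in WT. The region of Astl (chr2:127337802-127339063), whose promoter is printed above, had 1251, 1262 and 1251 bp in DTR and 593, 581 and 578 bp in WT (ratio 1.997). At Nfkbiz, a nuclear regulator of NF-kB in inflammation (chr16:55811877-55813354), the DTR libraries had 852, 1456 and 1449 bp and the WT libraries 769, 342 and 328 bp, and the WT1 library lay close to DTR1. Prkar1b, which encodes a regulatory subunit of protein kinase A, had 848, 873 and 858 bp in DTR and 249, 229 and 416 bp in WT (ratio 2.69), and its DTR libraries were close to each other. Gramd1a, a gene of sterol transport, had 1222, 1224 and 1241 bp in DTR and 431, 571 and 570 bp in WT (ratio 2.17). At the region in Ccdc63, 107 bp from the end of the cardiac myosin gene Myl2, DTR had 465, 408 and 1040 bp and WT 253, 261 and 347 bp (ratio 2.06), so only DTR3 was far above WT. Slc16a11, a gene of the monocarboxylate transporter family, had 1190, 857 and 1234 bp in DTR and 828, 388 and 387 bp in WT (ratio 1.92), with WT1 near DTR2.

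The widest members were 3719 bp at LOC102634078, 3694 bp at Ptprc, 3689 bp at Tcof1 by Cd74 and 3421 bp at Arhgap17. Ptprc encodes CD45, the phosphatase of white blood cells, and held 2 members within 50 kb. The wide one (chr1:138064391-138068084) had 2627, 2774 and 2748 bp in DTR and 1981, 1201 and 1541 bp in WT (ratio 1.61). The other (chr1:138108464-138110267) had 1643, 820 and 1555 bp in DTR and 530, 186 and 548 bp in WT (ratio 2.98), and its weak peaks were lost from DTR with lists of equal length. Of the 442 members, 428 had no other member within 50 kb and 14 lay in 7 pairs, among them those at Gm5544 and Rbm20. At Gm5544 the regions had ratios of 2.43 and 1.91. At Rbm20, a gene of RNA splicing in heart muscle, they had ratios of 2.32 and 1.12.

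Of 25 gene lists with 407 genes matched, 11 held a member within 10 kb of a listed gene. These were 2 of 10 lists for cell types and 9 of 15 for pathways. The lists for cell types had 4 to 34 tested regions and those for pathways 15 to 99. The counts of lists therefore do not compare both kinds. Members made up 0% to 4.17% of the regions of a cell type list and 0% to 5.05% of a pathway list. Near all protein-coding genes the share was 2.57%. The medians of the ratio over the regions of a list ran from 0.933 to 0.997, around the 0.950 of regions near all protein-coding genes. Among 31 myeloid transcription factors, 5 genes had a member, Zeb2, Fosl2, Cebpd, Cebpe and Klf6, and 5 of the 99 regions tested near these genes (5.05%) were members, against 344 of 13391 (2.57%) near all protein-coding genes. In the same list 38 regions (38.4%) were covered less in DTR, against 31.5% near all genes. Near Cebpd, a factor of acute inflammation, the region 8714 bp from the gene (chr16:15877058-15878572) had 1320, 1303 and 1472 bp in DTR and 900, 289 and 360 bp in WT (ratio 2.49). Both other WT libraries lay far below WT1 there. Near Cebpe, a factor of granulocyte maturation, the region (chr14:54705660-54706930) had 1258, 1267 and 630 bp in DTR and 470, 450 and 327 bp in WT (ratio 2.36). At an end of Klf6, a zinc finger factor, the values were 907, 1136 and 928 bp in DTR and 862, 744 and 749 bp in WT (ratio 1.18). The lists of classical monocytes (19 regions tested), neutrophils (8) and megakaryocytes and platelets (16) held 0 members, too few regions for 0 to be read against the 2.57% near all genes.

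Members of the other lists had ratios from just above 1 to about 3. Cdk6, a cell cycle kinase gene, had 2095, 2103 and 2110 bp in DTR and 1372, 1251 and 1377 bp in WT (ratio 1.47, 723 DTR-only bases). At Itga4, which encodes an integrin subunit of monocyte adhesion (chr2:79309452-79311433), DTR had 1360, 1564 and 739 bp and WT 327, 218 and 595 bp (ratio 3.02), no base was covered in all libraries, and with lists of equal length its ratio was 0. Ratios were 3.03 near Smad4 (TGF-beta signalling), 2.85 near Actg1 (actin), 1.53 at Axl, a receptor for the uptake of dead cells, and 1.499 by Cd74, the invariant chain of antigen presentation. They were 1.37 at Hdac9, 1.32 at Pou2f2 (listed for non-classical monocytes), 1.26 at Mecom (stem and progenitor cells), and 1.09 at Irf1, an interferon factor.

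At the limit of the rule the groups nearly touched. The members with the smallest ratios were Glcci1 (1.04), Slc35e1 (1.03) and Parp16 (1.02). The smallest factor between the lowest DTR and highest WT share was 1.00044 at Phox2a. Among regions just outside the rule it was 0.999747 near Ebpl, with a ratio of 1.51, and 0.999544 near Pja2, with a ratio of 1.04.

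A limma fit of the log2 share over all 16242 regions called 43 regions covered more in DTR (0.265%) and 5 covered less (0.0308%) at an adjusted p under 0.05, with 359 and 1739 at an unadjusted p under 0.05. All 43 were members, 9.73% of them, among which were Zeb2, Tinagl1 and Fosl2. The rule used the same shares, so this count describes the members and does not test them. Of the 43, 13 were at gene ends, 14 inside genes and 16 between genes. Without the DTR1 or the DTR3 library 0 regions were called more, without DTR2 the number was 1 and without WT1 it was 209.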

How the data were processed

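ATAC-seq peak lists of 3 DTR and 3 WT libraries of 50000 cells each were analysed. The tools named in the submitters' processing notes are fastp, Bowtie2 2.4.4, Bowtie and MACS2. Their settings, any read shift and the genome build were not given in the sources used here. Scaffold names and the highest peak end on chromosome 1 (195371723) match GRCm38, and genes and promoters came from RefSeq tables of GRCm38.p6. Each deposited list, called by the authors per library, gives a score, a fold (ratio) over background and −log10 p and q. The deposited score equals 10 times −log10 q, truncated, within 1. These are the authors' own values and were used within a list to describe peaks or filter them.

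Covered bases, shares, locations and promoter windows (promoter windows without chromosome 18) were computed in Python 3.11.15 with NumPy 2.4.6, pandas 2.3.3 and SciPy 1.17.1, and limma 3.58.1 (R 4.3.3, trended eBayes, Benjamini-Hochberg adjustment, no pseudocount) was fitted on all 16242 regions. The scripts were tested on simulated data. Named regions were those with the 10 largest ratios, the 8 largest at gene ends, the most DTR-only bases, the greatest width, the highest ratio per gene list, the top loci and the members nearest the limit. Gene lists use 10 kb around the gene. Counting 1 promoter window per gene and scaling the bases at marker ends were chosen after seeing the data. Some items that the naming rule selects are not reported here. The members and lists were chosen with earlier results of these data known.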

Additional observations from a re-analysis of the deposited data

How the results depend on the processing

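Over 17 settings, 55 of 95 summary values stayed within 1.5 times (counts) or within the spread between DTR libraries (median ratio), or kept the sign and the side of the threshold (Mb). The number of members covered more could not change by construction without scaling, without 1 library or with the block. Nor could the median ratio with the block. The exact p of the difference in Mb could not fall under 0.05 in any setting. Its sign was fixed without 1 library and with the block. These fixed values are among the 55, which therefore overstates how far the results held. Covered more and less in DTR numbered 2403 and 245 without scaling, 577 and 2431 divided by bases within tested regions, 647 and 1541 with lists of equal length, 1272 and 10875 from a width of 500 bp, and 55 and 462 from 2000 bp. Leaving out 1 library, which loosens the rule by construction, gave 690 to 1044 more and 5502 to 7177 less. The median member ratio was 1.58 without scaling, 1.5002 divided by bases within tested regions, 1.46 with a −log10 q of at least 5, and 1.44 to 1.49 without 1 library. limma called 92 more and 9 less without scaling, 71 and 12 from 500 bp, and 0 and 0 from 2000 bp (42 and 91 at an unadjusted p under 0.05). Without 1 library it called 0 to 209 more and 0 to 21 less, with 0 more without DTR1 (393 at an unadjusted p under 0.05) or DTR3 (330). The difference in Mb of peaks was 2.39 to 4.30 without 1 library. Causes were not tested, except where the construction of a setting gives one.

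Same-numbered libraries deviated with correlations of −0.00288, 0.0441 and −0.0126, against −0.0506 to 0.0551 for different numbers, so the numbers gave no sign of pairing. With the replicate block, 822 regions were covered more and 7623 less, limma called 0 more and 0 less (332 and 3565 at an unadjusted p under 0.05), and the difference in Mb had an exact sign-flip p of 0.25, the smallest possible.

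With lists of equal length the ratio at Zeb2, at Itga4 and at the region of Ptprc with a ratio of 2.98 was 0. Their weak DTR peaks fell out of the shortened lists. The WT peaks there were weak too, but the DTR lists were longer and were cut more. Of the 442 members, 409 were covered more in DTR with lists of equal length, 357 with a −log10 q of at least 5, 408 without peaks under 200 bp and 439 divided by bases within tested regions. Depth is unknown, so the reach of a peak cannot be told from the number of reads behind it.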

Other observations

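Chromosome X was outside the rule. Of its 361 shared regions of at least 1000 bp, 5 (1.39%) had the lowest DTR share above the highest WT share and 89 (24.7%) the reverse. The largest ratio was 1.61, at an end of Tlr7, which encodes a receptor for single-stranded RNA (chrX:167301843-167303236), with 1333, 1389 and 1018 bp under peaks in DTR and 864, 616 and 697 bp in WT. Kcnd1, a potassium channel gene, had 838, 874 and 993 bp in DTR and 461, 713 and 460 bp in WT (ratio 1.53).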
